A study of Bos taurus with 18 samples.

Results

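The 6 genes of cell contacts described here were read across the cell layers of the bovine preovulatory follicle: they are the claudins CLDN1 and CLDN11 of tight junctions, the connexin GJA1 of gap junctions, the cadherin CDH2 and the LIM domain protein LMO7 of adherens junctions, and RND3, a regulator of adhesion. They were chosen by name with their behaviour in these data already known, and every probe set that the platform's table assigns to one of these symbols was taken. That gave 6 of 9155 genes and 10 of 24016 probe sets. The study used Affymetrix 3' arrays to compare follicles taken after and before the LH surge, the gonadotropin pulse that starts ovulation. A single dominant follicle was taken from each of 6 cows, and its theca cells, antral granulosa cells (aspirated with the fluid) and membrane-associated granulosa cells (those that stay on the follicle wall) went on separate arrays. Cows A, B and C gave follicles 22 h after the surge was induced with GnRH, and cows D, F and G gave follicles before it. The study's design text counts the 22 h from GnRH, and its sample labels count them from the LH surge. The groups are thus theca after LH, theca before LH, antral granulosa after LH, antral granulosa before LH, membrane granulosa after LH and membrane granulosa before LH, with 3 arrays each. Every follicle after LH had received GnRH, and neither breed nor age of the cows is labelled. The labels give no sorting of the cells, only that antral granulosa was aspirated.

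Tight junctions seal the space between neighbouring cells through strands of claudins. Gap junctions join the cytoplasm of neighbours through channels of connexins, and in the follicle the connexin encoded by GJA1 couples granulosa cells to each other and the granulosa to the cumulus. Adherens junctions hold cells together through cadherins, whose tails bind catenins and so the actin cytoskeleton. In the ovulating follicle the LH surge is known to close gap junctions between granulosa cells, while the theca and granulosa begin to reorganise into the corpus luteum.

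Values are log2 signals, so that a difference of 1 is a 2-fold difference, and they cannot be compared between genes because each probe set has its own response. Differences are given as later minus earlier, or theca or antral minus membrane granulosa, ± standard error (SE) with n = 3 cows per group. The SE comes from limma and uses a spread that all 6 groups share. Of a gene with several probe sets, the one with the highest mean over all arrays was used, called the brighter one below where there are 2. The files hold no detection calls. A signal below 4.62 is treated as an upper bound, since the dimmest 8005 probe sets all have means under this limit, and where all 3 arrays of a group lie below it and all 3 of the other group lie above it, a difference is also given as "at least" against that limit. With 3 arrays a group, their number sets the precision. Because the 6 genes were picked for their response, their differences are a description without p-values. Tests are read for 68 other measured junction genes only, with an adjusted p under 0.05 (limma, Benjamini-Hochberg over all 24016 probe sets) as the threshold. Of the 6 genes only the number past the same threshold is given, in places with the names, on the brightest probe sets. It stands beside the share of all genes, and nothing is read from it.

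The 3 arrays of cow C stood apart on the third principal component, which held 6.30% of the variance. They lay between 27.5 and 52.7 on it, against -30.8 to 11.3 for the other 15 arrays. The summed granulosa markers were highest in granulosa and the summed theca markers in theca at both times, but each list also gave signal in the other layers. Single markers departed from this before LH: GATM, of the granulosa list, averaged 7.91 in theca, 5.21 in antral and 6.97 in membrane granulosa, and LHCGR, of the theca list, averaged 8.57 in theca, 8.13 in antral and 9.63 in membrane granulosa. The summed signal of 10 granulosa markers lay between 14.4 and 15.29 (log2) in theca before LH, against 16.29 to 16.54 in the granulosa groups before LH. The summed signal of 8 measured theca markers lay between 15.32 and 15.54 in theca before LH, against 10.64 to 11.43 in antral and 11.61 to 14.47 in membrane granulosa before LH. CYP19A1, the granulosa enzyme that makes oestradiol, read 10.85, 11.82 and 8.21 in theca before LH, and INSL3, a theca hormone, read 14.04, 10.87 and 13.60 in membrane granulosa before LH (cows D, F and G). FOXL2, a granulosa marker, was below the limit on all theca arrays and on all granulosa arrays after LH, and PTCH1, a theca marker, on all 18 arrays. In such bulk samples fewer cells of a type and less RNA per cell cannot be told apart.

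All 6 genes were past the threshold after LH in both kinds of granulosa, 5 of them higher and GJA1 lower. Among all 9155 genes 13.1% were higher and 12.9% lower in membrane granulosa, and 12.6% higher and 16.1% lower in antral granulosa. In theca 3 of the 6 were past it, all higher (CLDN1, CDH2 and RND3), where 2.34% of all genes were higher and 2.85% lower. The groups after and before LH did not overlap for 5 of the 6 higher and 1 lower in membrane granulosa (18.6% and 20.0% of all genes), for 5 higher and 1 lower in antral granulosa (19.7% and 24.3%), and for 3 higher and 1 lower in theca (11.1% and 12.3%). The genes were chosen on these contrasts. The plot of the 6 genes on all arrays shows the levels from which they come.

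**Figure D1:**
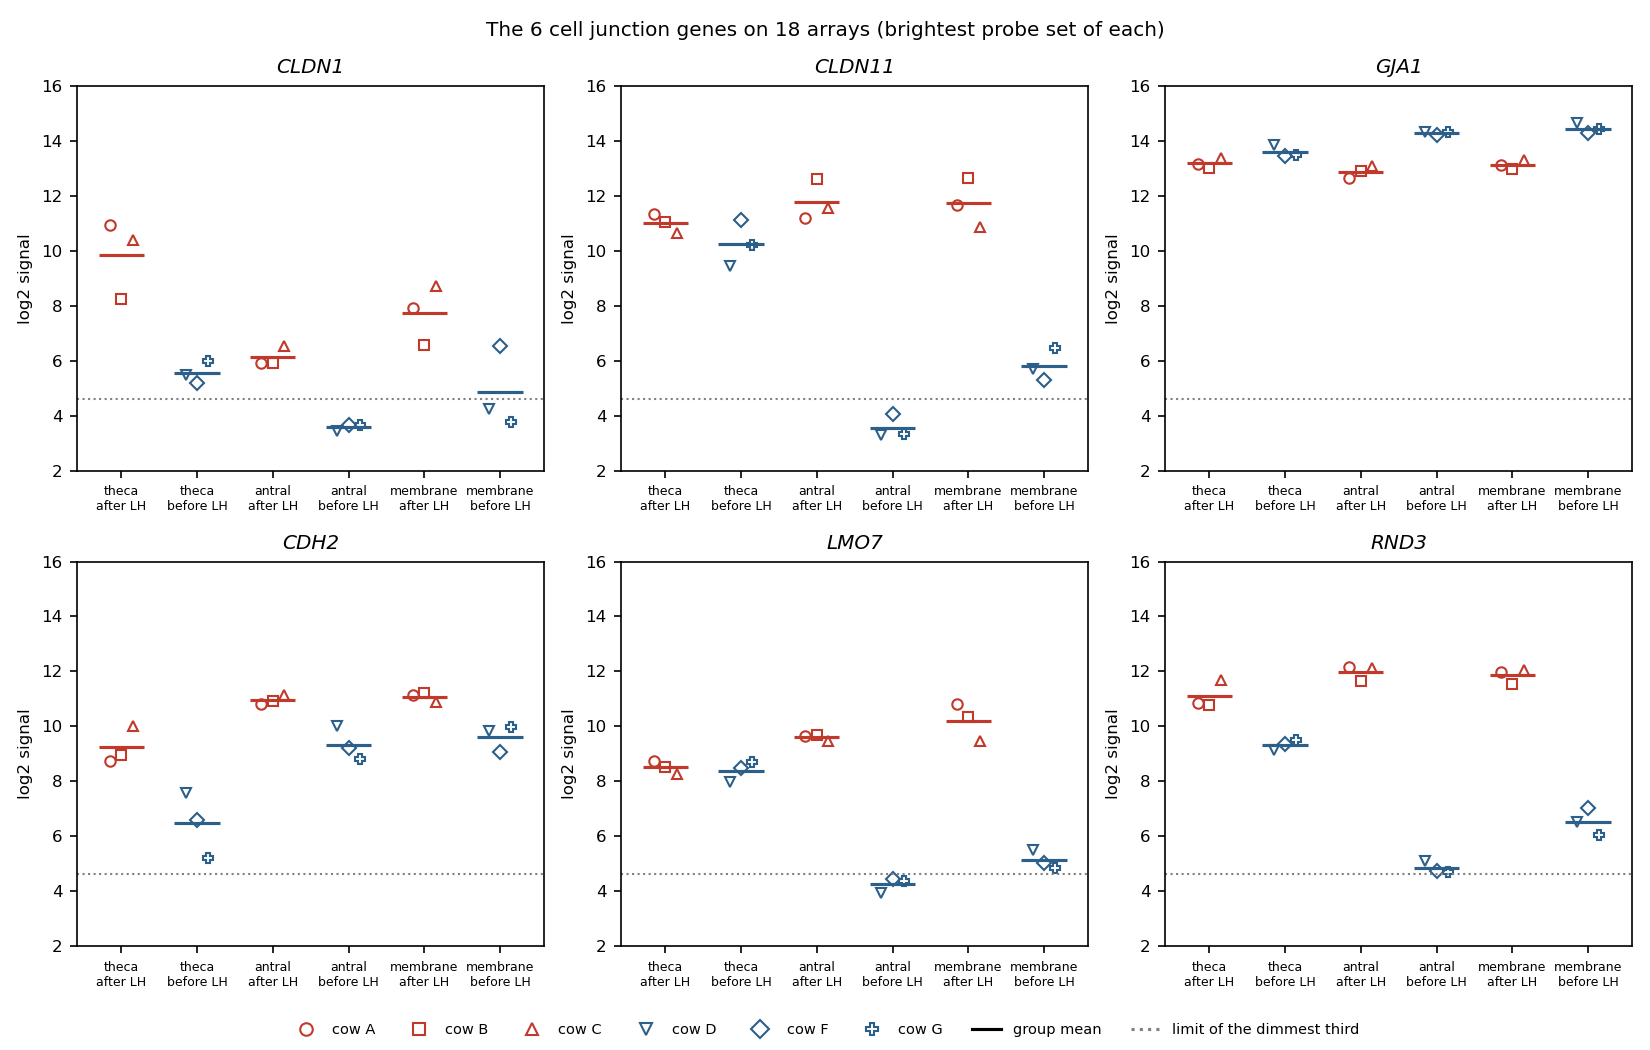
Log2 signal (vertical axis) of CLDN1, CLDN11, GJA1, CDH2, LMO7 and RND3 on the 18 arrays, brightest probe set of each, by cell layer and time (horizontal axis). Each symbol is 1 cow, bars are group means, and the dotted line is the limit of 4.62. CLDN11, LMO7 and RND3 were near the limit in antral granulosa before LH (means of 3.57, 4.26 and 4.84) and between 9.60 and 11.98 there after LH, while GJA1 was at 12.67 or above on every array.

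CLDN1 encodes a claudin of epithelial barriers, and its largest LH difference of the 3 layers was in theca. There it read 10.94, 8.25 and 10.38 in cows A, B and C after LH, against 5.49, 5.21 and 6.0 in cows D, F and G before LH. All theca values after LH lay above all values before it, and the difference was 4.29 ± 0.71. Without cow B, the lowest after LH, it was 5.09.

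In antral granulosa CLDN1 read 5.93, 5.93 and 6.54 after LH, against 3.44, 3.68 and 3.65 before LH. The 3 values before LH were below the limit of 4.62, so the fitted difference of 2.54 ± 0.71 amounts to at least 1.51. In membrane granulosa it read 7.91, 6.58 and 8.74 after LH, against 4.26, 6.54 and 3.79 before LH. Cow F stood apart from cows D and G before LH, which were below the limit, and lay just below cow B after LH, so that the groups came close without overlapping. The membrane granulosa difference of 2.88 ± 0.71 became 3.72 without cow F.

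The membrane granulosa array of cow F also had the highest summed signal of 7 markers of the ovarian surface epithelium among the 3 arrays before LH, 8.57 against a lowest value of 7.31. KRT19, a keratin of that list, read 3.85, 7.31 and 3.90 in cows D, F and G there, and 5.06, 5.62 and 5.62 in cows A, B and C after LH. EPCAM, KRT7 and KRT8, of the same list, were below the limit on all membrane granulosa arrays before LH. Among membrane granulosa arrays after LH the sum ran from 7.87 to 10.39, with its highest value in cow C, which also had the highest CLDN1. That value came mostly from KRT18, which read 6.65, 6.20 and 10.20 in cows A, B and C. UPK3B read 5.42, 5.47 and 5.17 there and MSLN 4.68, 4.69 and 4.99, while EPCAM, KRT7 and KRT8 were again below the limit. In theca the sum was 8.46, 8.12 and 10.15 in cows A, B and C after LH, against 7.62 to 8.22 before LH. After LH cow B had the lowest sum and the lowest CLDN1, while cow C had the highest sum and cow A the highest CLDN1. Before LH cow F had the highest sum in theca and the lowest CLDN1. The part of surface epithelium cells in CLDN1 was not tested.

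In the order of its means CLDN1 was highest in theca after LH (9.86), followed by membrane granulosa after LH (7.74), antral granulosa after LH (6.13), theca before LH (5.57), membrane granulosa before LH (4.86) and antral granulosa before LH (3.59). Theca and membrane granulosa after LH overlapped, as did antral granulosa after LH with theca before LH, and theca with membrane granulosa before LH. A second CLDN1 probe set was dimmer and had the same order between times in theca, with 9.16, 6.64 and 8.47 after LH against 4.78, 4.65 and 4.86 before LH. Its LH difference was 3.33 ± 0.55 in theca, 1.20 ± 0.55 in antral and 1.37 ± 0.55 in membrane granulosa. In antral granulosa it was below the limit on all 3 arrays before LH and on 2 of 3 after LH, and in membrane granulosa its groups overlapped.

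CLDN11 encodes the claudin of myelin and of the Sertoli cell barrier in the testis, and its signal in both kinds of granulosa was far higher after LH. In antral granulosa its brighter probe set read 11.18, 12.60 and 11.57 after LH, against 3.29, 4.07 and 3.35 before LH. The earlier values were below the limit, and the fitted difference of 8.21 ± 0.49 amounts to at least 7.16. In membrane granulosa it read 11.68, 12.67 and 10.86 after LH, against 5.71, 5.31 and 6.45 before LH. That is a difference of 5.91 ± 0.49, or 60.2-fold.

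Theca already had a high CLDN11 signal before the surge. It read 11.35, 11.04 and 10.64 in theca after LH, against 9.46, 11.14 and 10.20 in theca before LH. The groups overlapped, because cow F before LH lay above cows B and C after LH, and the difference was 0.74 ± 0.49. Before LH the membrane granulosa values lay above the antral ones, and the theca markers ran the same way: 11.61 to 14.47 in membrane and 10.64 to 11.43 in antral granulosa. The part of theca cells in that CLDN11 difference was not tested. Cow F, with the lowest CLDN11 of the 3 membrane granulosa arrays (5.31), also had the lowest INSL3 (10.87) and CYP17A1 (4.90) there, against 14.04 and 10.42 in cow D and 13.60 and 8.84 in cow G. Between cows D and G the order was opposite, with CLDN11 at 5.71 in cow D and 6.45 in cow G.

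The means of CLDN11 were 11.78 in antral granulosa after LH, 11.74 in membrane granulosa after LH and 11.01 in theca after LH, which overlapped as neighbours, and theca before LH (10.27) overlapped theca after LH. Membrane granulosa before LH (5.82) and antral granulosa before LH (3.57) each stood clear of the group above. The second CLDN11 probe set was dimmer and gave smaller differences in granulosa, 2.16 ± 0.48 in antral and 3.12 ± 0.48 in membrane granulosa, and 0.85 ± 0.48 in theca. It read 4.65, 5.50 and 5.81 in antral granulosa before LH, where the brighter probe set was below the limit.

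**Figure D2:**
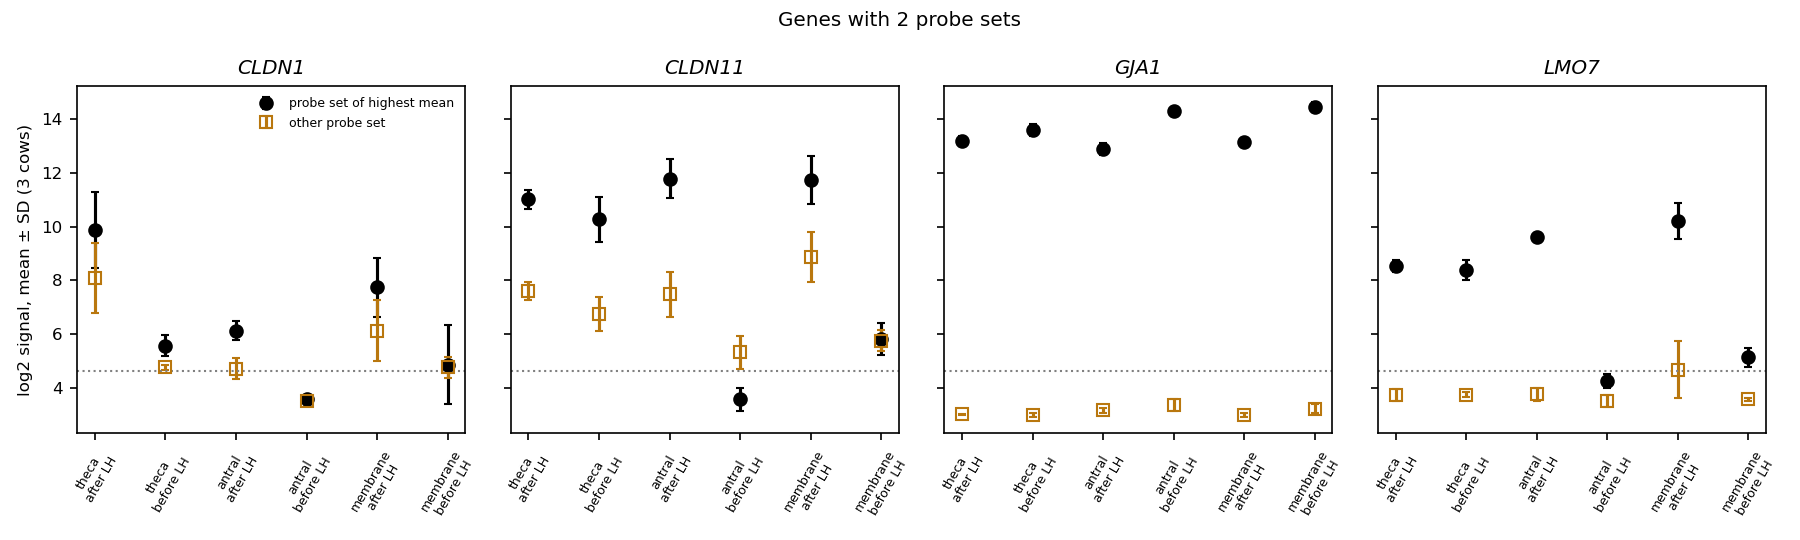
Log2 signal (vertical axis) of both probe sets of CLDN1, CLDN11, GJA1 and LMO7, as mean ± SD of 3 cows in each layer and time (horizontal axis). Filled circles are the probe set of highest mean, open squares the other, and the dotted line is the limit of 4.62. The second probe set of CLDN1 had smaller LH differences in all 3 layers, that of CLDN11 had smaller ones in both kinds of granulosa (in theca 0.85 against 0.74), and that of GJA1 lay near 3 in all 6 groups.

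Of the 12 further claudins measured, none was called higher in granulosa after LH by limma, also at an unadjusted p under 0.05. Their median difference was -0.07 in membrane and -0.06 in antral granulosa, against -0.03 over all genes in both. CLDN7 fell, to 5.09, 5.04 and 4.96 in membrane granulosa after LH, against 6.49, 5.97 and 6.75 before LH, with no overlap (-1.37 ± 0.26, adjusted p = 0.00116), and in antral granulosa (-1.45 ± 0.26, adjusted p = 0.000636). CLDN12 fell in antral granulosa (-0.66 ± 0.21, adjusted p = 0.0318), a call lost without cow A, B, D, F or G (-0.67 to -0.53). CLDN5, the claudin of endothelium, was not called in any LH comparison.

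Of 13 measured genes of tight junction scaffolds and other membrane proteins, 1 rose and 1 fell in each kind of granulosa. CGN, cingulin, which ties tight junctions to actomyosin, fell in membrane granulosa to 6.41, 6.63 and 7.11 after LH, against 9.13, 9.04 and 9.69 before LH (-2.57 ± 0.25, adjusted p = 2.08e-06). Its antral difference was -2.43 ± 0.25 (adjusted p = 2.59e-06), and in theca it was -0.77 ± 0.25 (adjusted p = 0.105). MAGI3, a scaffold, rose on its brightest probe set by 1.20 ± 0.29 in membrane (adjusted p = 0.00767) and 1.63 ± 0.29 in antral granulosa (adjusted p = 0.000726). The call in membrane granulosa was lost without cow B (1.05, adjusted p = 0.0538). Its probe sets disagreed: 2 of the others read -1.54 and -1.02 in membrane granulosa. With the mean of its probe sets the calls were lost in membrane (-0.01, adjusted p = 0.985) and in antral granulosa (0.22, adjusted p = 0.677). TJP1 was below the limit on all arrays, and OCLN was not measured.

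GJA1 was the gene of the 6 with a lower signal after LH. In antral granulosa it read 12.67, 12.90 and 13.09 after LH, against 14.32, 14.23 and 14.33 before LH. In membrane granulosa it read 13.12, 12.99 and 13.29 after LH, against 14.65, 14.28 and 14.43 before LH. The groups did not overlap in either kind of granulosa, and the differences were -1.41 ± 0.15 and -1.32 ± 0.15, or 2.66-fold and 2.50-fold lower.

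In theca GJA1 read 13.18, 13.00 and 13.38 after LH, against 13.86, 13.44 and 13.50 before LH. The gap between the groups was narrow, and the difference was -0.41 ± 0.15. GJA1 was close to the top of the scale in granulosa before LH, 0.10 to 0.55 below the brightest probe set of the array in membrane and 0.55 to 0.59 below it in antral granulosa. After LH it was 1.33 to 1.64 below the brightest in membrane and 1.65 to 1.95 below it in antral granulosa. Differences from levels so near the top can be understated.

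The means of GJA1 ran from membrane granulosa (14.45) and antral granulosa (14.29) before LH, which overlapped, through theca before LH (13.60) to theca (13.19), membrane granulosa (13.13) and antral granulosa (12.88) after LH. The last 3 overlapped as neighbours. A second GJA1 probe set was below the limit on all 18 arrays and gives no information on the gene.

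None of the 7 other gap junction genes measured was called in granulosa by limma. At an unadjusted p under 0.05 there was 1 higher and 1 lower in membrane granulosa and 0 in antral granulosa. GJB2, GJB6, GJD2 and PANX1 were below the limit in all 6 groups. GJC1, a connexin, read 6.17 to 7.16 in membrane granulosa after LH and 5.73 to 6.09 before LH, a difference of 0.87 ± 0.30 (adjusted p = 0.0534). GJB5, a connexin of skin and placenta in the mouse, fell in theca to 6.79, 6.56 and 6.49 after LH, against 8.14, 7.63 and 8.0 before LH (-1.31 ± 0.19, adjusted p = 0.000661). GJA4 and GJA5 were not measured.

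CDH2 encodes N-cadherin, the cadherin known from granulosa cells, and had a single probe set. In theca it read 8.76, 8.96 and 10 after LH, against 7.59, 6.60 and 5.23 before LH. The groups did not overlap, but both spread widely, and the difference of 2.77 ± 0.48 ranged from 2.14 without cow G to 3.33 without cow D. The summed granulosa markers moved the other way in theca, 13.6 to 13.8 after LH against 14.4 to 15.29 before LH, but they were also lower after LH in granulosa itself (14.54 to 15.17 in membrane granulosa after LH, against 16.42 to 16.54 before LH). Before LH the sum in theca was 15.29, 15.19 and 14.4 in cows D, F and G, in the same order as CDH2. After LH it was 13.8, 13.7 and 13.6 in cows A, B and C, opposite to the order of CDH2. The part of granulosa cells in the theca CDH2 signal was not tested.

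In antral granulosa CDH2 read 10.83, 10.93 and 11.14 after LH, against 10.01, 9.20 and 8.81 before LH. In membrane granulosa it read 11.16, 11.20 and 10.88 after LH, against 9.85, 9.07 and 9.97 before LH. Values after LH were close together and above all earlier ones, and the differences were 1.63 ± 0.48 and 1.45 ± 0.48. The lowest means of CDH2 were those of theca. They were 11.08 and 10.97 in membrane and antral granulosa after LH, 9.63 and 9.34 in membrane and antral granulosa before LH, 9.24 in theca after LH and 6.48 in theca before LH. Neighbours overlapped within each granulosa pair and between antral granulosa before LH and theca after LH.

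LMO7 encodes a protein that in the rat links the nectin adaptor afadin to the actin binder alpha-actinin. Its brighter probe set read 9.64, 9.69 and 9.48 in antral granulosa after LH, against 3.95, 4.46 and 4.38 before LH. The values before LH were below the limit, and the fitted difference of 5.34 ± 0.28 amounts to at least 4.98. In membrane granulosa it read 10.80, 10.36 and 9.48 after LH, against 5.50, 5.04 and 4.84 before LH, a difference of 5.09 ± 0.28 or 34.0-fold.

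In theca LMO7 read 8.73, 8.54 and 8.28 after LH, against 7.97, 8.50 and 8.70 before LH. The groups overlapped almost entirely, and the difference was 0.13 ± 0.28. The means were 10.21 and 9.60 in membrane and antral granulosa after LH, 8.52 and 8.39 in theca after and before LH, 5.13 in membrane and 4.26 in antral granulosa before LH, with overlap within the first pair and the theca pair only. The second LMO7 probe set was below the limit on every array except 2 of membrane granulosa after LH, where it read 5.73 and 4.69 in cows A and B.

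Of 13 other adherens junction genes, 3 rose and 1 fell in membrane granulosa, and 2 rose and 1 fell in antral granulosa. Their medians were -0.06 and 0.06. VCL, vinculin, which reinforces cadherin and integrin contacts under tension, rose to 11.58, 11.89 and 11.58 in membrane granulosa after LH, against 9.34, 9.48 and 9.79 before LH (2.15 ± 0.22, adjusted p = 4.36e-06), and by 2.79 ± 0.22 in antral granulosa (adjusted p = 2.6e-07). Its second probe set gave 1.51 and 2.33. CDH1, E-cadherin, rose by 2.06 ± 0.46 in membrane (adjusted p = 0.00398) and 1.56 ± 0.46 in antral granulosa (adjusted p = 0.0215), from a probe set whose partner was below the limit on 17 of 18 arrays. The antral call of CDH1 was lost without cow A, D or G (1.30 to 1.51). In membrane granulosa CDH1 was highest before LH in cow F (5.92, against 4.63 in cow D and 4.80 in cow G), the array with the high KRT19 and CLDN1. CDH11, a cadherin of mesenchyme, fell by 1.03 in membrane granulosa (SE 0.31, adjusted p = 0.0282) and by 1.05 in antral granulosa (SE 0.31, adjusted p = 0.0241). These calls were lost in membrane granulosa without cow B, D or G (-0.98 to -0.76) and in antral granulosa without cow A, B, D or G (-1.10 to -0.86). CTNNB1, beta-catenin, was not called after LH in any layer.

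Desmosomes join cells to intermediate filaments, and of 9 measured genes 2 rose and 1 fell in each kind of granulosa. DSC2, desmocollin 2, read 7.38, 7.36 and 7.99 in membrane granulosa after LH, against 4.16, 4.97 and 4.20 before LH (3.14 ± 0.33, adjusted p = 4.64e-06). In antral granulosa its rise was at least 2.89 (adjusted p = 8.86e-07). In theca it read 7.57, 7.78 and 7.81 after LH, against 6.92, 7.41 and 7.68 before LH, without a call. PKP2, a plakophilin of desmosomal plaques, rose by 1.99 ± 0.35 and 1.93 ± 0.35 in membrane and antral granulosa (adjusted p = 0.000647 and 0.000739). PKP4, of the same armadillo family, fell by 1.29 in membrane granulosa (SE 0.27, adjusted p = 0.00291) and fell by 1.84 in antral granulosa (SE 0.27, adjusted p = 0.000132).

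**Figure D3:**
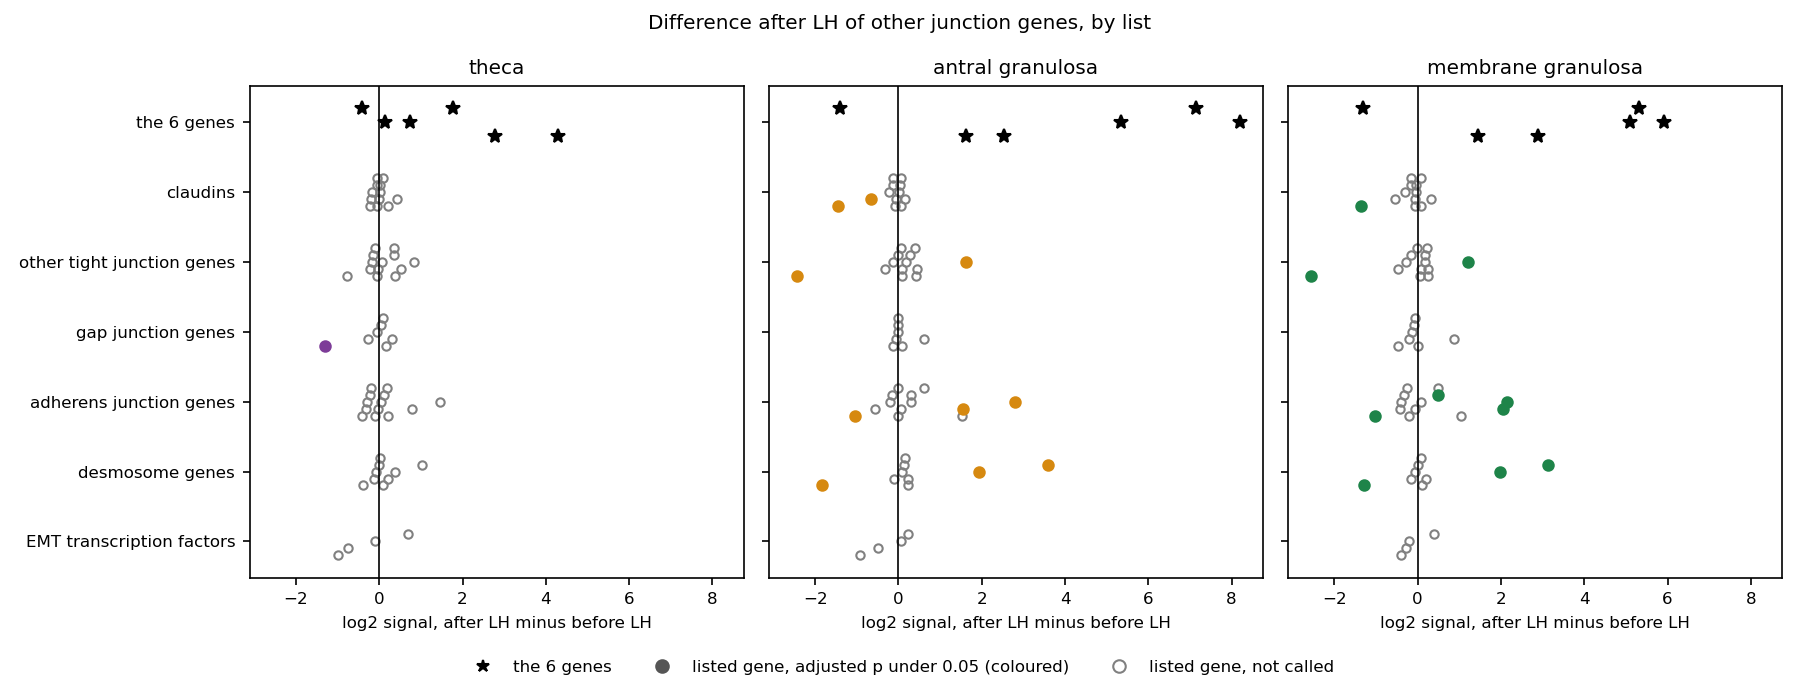
LH difference (log2 signal after minus before LH, horizontal axis) of the 6 genes (stars, brightest probe sets, a description) and of other junction genes in 6 lists (rows), in theca, antral and membrane granulosa. Filled points passed an adjusted p under 0.05 and open points did not. Most listed genes lay near 0, and CLDN11, LMO7 and RND3 lay at 5.09 or above in both granulosa panels.

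RND3 encodes a small protein that stays bound to GTP and inhibits the kinase ROCK1, which drives actomyosin contraction. It had a single probe set. In antral granulosa it read 12.15, 11.66 and 12.13 after LH, against 5.09, 4.73 and 4.69 before LH. In membrane granulosa it read 11.98, 11.54 and 12.05 after LH, against 6.52, 7.04 and 6.06 before LH. The values of each group were close together and the groups far apart, with differences of 7.15 ± 0.27 and 5.32 ± 0.27, or 142-fold and 39.9-fold.

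In theca RND3 read 10.87, 10.78 and 11.69 after LH, against 9.13, 9.36 and 9.50 before LH. These groups did not overlap either, and the difference was 1.78 ± 0.27. The means were 11.98 in antral and 11.86 in membrane granulosa after LH, 11.11 in theca after LH, 9.33 in theca before LH, 6.54 in membrane and 4.84 in antral granulosa before LH. The 3 groups after LH overlapped as neighbours, and the 3 groups before LH were all separate.

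CFL1, cofilin, which severs actin filaments downstream of ROCK and LIM kinases, rose by 1.44 ± 0.16 in membrane (adjusted p = 6.57e-06) and 1.08 ± 0.16 in antral granulosa (adjusted p = 8.95e-05). PLXNB2, a semaphorin receptor, rose by 1.37 ± 0.30 in antral granulosa (adjusted p = 0.00339). RHOB rose in theca to 12.06, 11.68 and 11.38 after LH, against 10.23, 10.46 and 10.58 before LH (1.28 ± 0.19, adjusted p = 0.000847). Of 4 measured transcription factors of epithelial-mesenchymal transition, limma called none after LH in any layer. At an unadjusted p under 0.05, 1 of them was lower in antral granulosa, 1 was higher and 1 lower in theca, and none passed in membrane granulosa. SNAI1 differed by 0.39 ± 0.26 in membrane granulosa (adjusted p = 0.335), and SNAI2 was not measured. SNAI1 read 4.28, 4.22 and 5.03 there after LH, against 4.42, 3.86 and 4.09 before LH, so all but the highest value were below the limit. OVOL1, another of the 4, was below it on all membrane granulosa arrays (4.15 after LH, 4.18 to 4.49 before LH). At such signals the lack of a call says little. In theca SNAI1 read 5.34, 4.65 and 5.69 after LH, against 4.4, 4.31 and 4.89 before LH, with overlap. ZEB1, also of the 4, was above the limit on all arrays.

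Over all 68 junction genes 8 rose and 4 fell in membrane granulosa (17.6%, against 26.1% of all genes called either way) and 7 rose and 5 fell in antral granulosa (17.6%, against 28.7%). In theca 1 rose and 1 fell (2.94%, against 5.19%). The count in membrane granulosa was 19 without cow C.

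**Figure D4:**
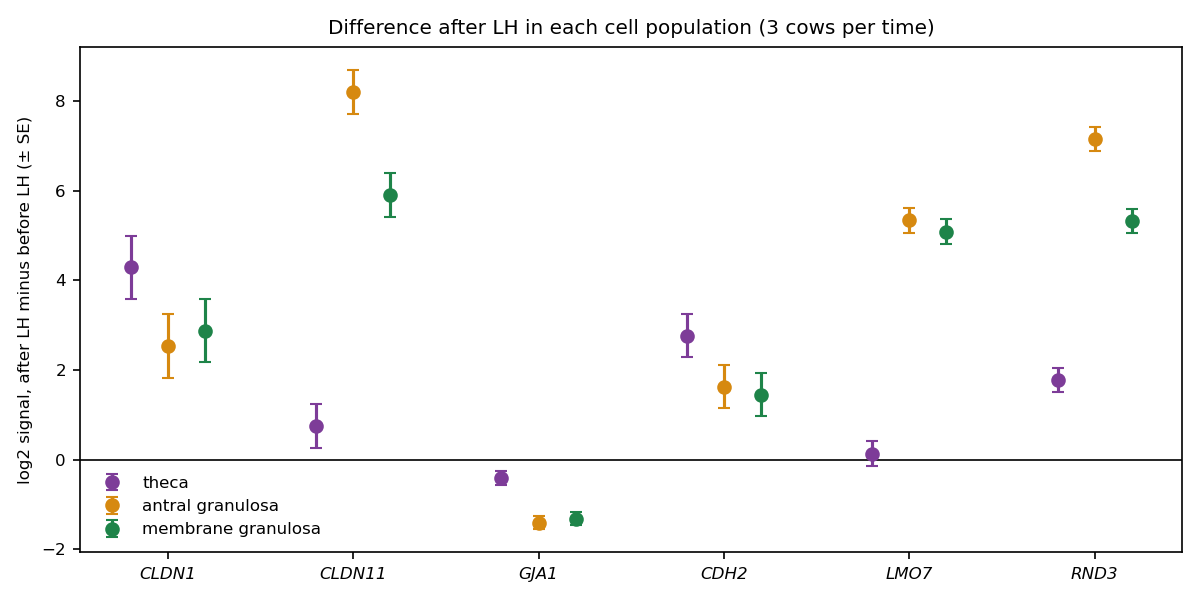
LH difference (log2 signal after minus before LH, vertical axis) of the 6 genes in theca, antral and membrane granulosa, with SE (3 cows per time). CLDN11 and LMO7 differed by 0.74 and 0.13 in theca, while CLDN1 and CDH2 had their highest differences there (4.29 and 2.77).

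Leaving out cow C moved the 18 LH differences of the 6 genes by -0.50 to 0.44. The CLDN1 difference in membrane granulosa became 2.38, that of CLDN11 in membrane granulosa 6.35 and that of CDH2 in theca 2.39. None of the 18 changed sign.

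The layers of a follicle can also be compared within a cow. After LH CLDN11, LMO7 and RND3 were lower in theca than in membrane granulosa in all 3 cows, with differences of -0.73 ± 0.41 for CLDN11, -1.70 ± 0.25 for LMO7 and -0.74 ± 0.22 for RND3. Before LH these genes were higher in theca in all 3 cows, by 4.44 ± 0.41, 3.26 ± 0.25 and 2.79 ± 0.22. Thus the order of theca and membrane granulosa was opposite at the 2 times for these genes. The differences in LH effect, theca minus membrane granulosa, were -5.17 ± 0.57, -4.96 ± 0.35 and -3.54 ± 0.31. The second CLDN11 probe set gave -1.28 ± 0.39 after LH, 1.0 ± 0.39 before LH and -2.28 ± 0.56 for the difference in LH effect.

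CDH2 was lower in theca than in membrane granulosa at both times, with differences of -1.84 ± 0.39 after LH and -3.16 ± 0.39 before LH. Cow G had the largest gap before LH (-4.74, against -2.26 in cow D and -2.47 in cow F). After LH the layers were within 0.09 of each other in every cow for GJA1 (0.05 ± 0.12), and before LH GJA1 was lower in theca (-0.85 ± 0.12), with cows between -0.92 and -0.80. CLDN1 was higher in theca by 2.11 ± 0.57 after LH. Before LH the cows disagreed on CLDN1, with 1.24, -1.33 and 2.21 in cows D, F and G.

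Of the 6 genes, 1 was past the threshold higher (CLDN1) and 3 lower (CDH2, LMO7 and RND3, not CLDN11) in theca than in membrane granulosa after LH. Of all genes 15.7% were past it in each direction. Before LH 3 were higher and 2 lower, where 21.1% of all genes were higher and 19.3% lower. The 3 cows agreed for 2 genes higher and 4 lower in theca after LH (31.6% and 31.9% of all genes) and for 3 higher and 2 lower before LH (30.2% and 32.5%). In LH effect 1 was higher in theca (GJA1) and 3 lower, against 5.66% and 5.96% of all genes. CLDN1, which is not among these, differed in LH effect by 1.41 ± 0.80 on its brighter probe set and by 1.96 ± 0.50 on its second. CDH2 differed by 1.32 ± 0.55.

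**Figure D5:**
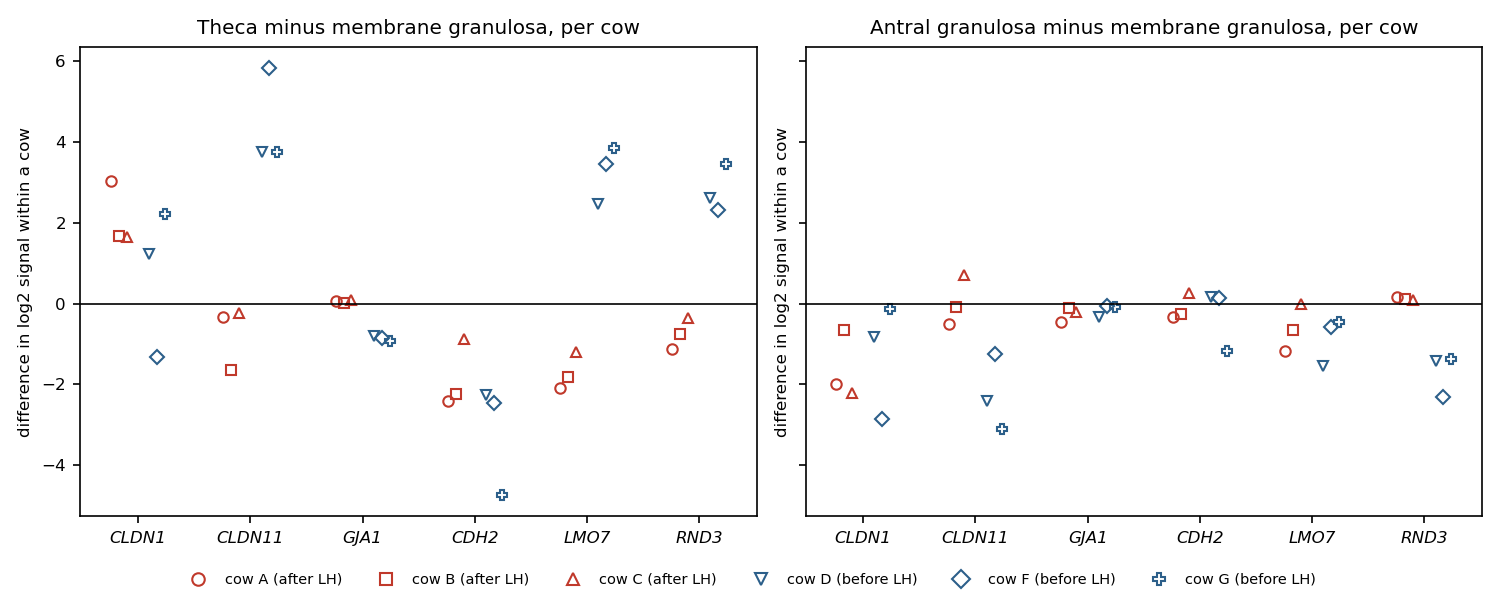
Differences in log2 signal within a cow (vertical axis) for the 6 genes, theca minus membrane granulosa on the left and antral minus membrane granulosa on the right. Each symbol is 1 cow, with red symbols after LH and blue symbols before LH. For CLDN11, LMO7 and RND3 the theca differences lay between -2.08 and -0.22 after LH and between 2.33 and 5.83 before LH.

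Antral and membrane granulosa of a cow differed less. Before LH antral granulosa was lower than membrane granulosa for CLDN11 (at least 1.20 lower, fitted -2.25 ± 0.41) and RND3 (-1.70 ± 0.22). The second CLDN11 probe set gave -0.44 ± 0.39, with cows between -1.12 and 0.14. On the brightest probe sets 2 of the 6 were past the threshold, both lower, with 1.53% of all genes lower and 1.05% higher. LMO7 was lower in antral granulosa in all 3 cows (-0.86 ± 0.25, at least 0.50 lower). The fitted difference of CLDN1 was -1.27 ± 0.57, but in cows D and G both layers were below the limit. GJA1 and CDH2 differed by -0.16 ± 0.12 and -0.29 ± 0.39. After LH none of the 6 was past the threshold by limma, with 1.16% of all genes higher and 2.25% lower. CLDN1 was then lower in antral granulosa in all 3 cows (-1.61 ± 0.57), while CLDN11 and RND3 differed by 0.05 ± 0.41 and 0.13 ± 0.22. The probe sets of CLDN11 disagreed here, since the second was lower in antral granulosa in all 3 cows (-1.4 ± 0.39, cows between -2.15 and -0.86). All 3 cows agreed for 0 genes higher and 5 lower, CLDN1 included, in antral granulosa before LH (22.6% and 19.0% of all genes) and for 1 higher and 2 lower after LH (24.0% and 26.6%). In LH effect, antral minus membrane granulosa, RND3 differed by 1.83 ± 0.31, with antral values before LH close to the limit. CLDN11 gave 2.3 ± 0.57 on its brighter probe set, which was below the limit in antral granulosa before LH, and -0.96 ± 0.56 on its second, which was above the limit on all 18 arrays, so that its direction depends on the probe set. No gene of the 9155 passed limma's test of that difference (0.0%), and at an unadjusted p under 0.05 there were 359 higher and 679 lower.

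The other junction genes differed between theca and membrane granulosa about as often as all genes. After LH 14 of 68 were higher and 10 lower in theca (35.3%, against 31.5%), and before LH 19 were higher and 7 lower (38.2%, against 40.4%). CLDN5 and CDH5, both of endothelium, were higher in theca after LH by 3.17 ± 0.45 (adjusted p = 0.000387) and 2.85 ± 0.30 (adjusted p = 9.06e-05), and before LH by 3.04 ± 0.45 (adjusted p = 0.000215) and 3.14 ± 0.30 (adjusted p = 1.26e-05). Both are also on the list of 8 endothelial markers. The summed signal of its 6 other genes lay between 10.62 and 11.36 in theca after LH, against 7.15 to 8.49 in membrane granulosa after LH, and between 10.77 and 11.39 in theca before LH, against 6.99 to 7.8 in membrane granulosa before LH. The part of endothelial cells in these differences was not tested.

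ACTN1, alpha-actinin 1, was higher in theca before LH by 4.06 ± 0.53 (adjusted p = 9.96e-05), and ZEB1, a repressor of CDH1 transcription, by 2.05 ± 0.30 (adjusted p = 0.000212). Other ACTN1 probe sets, below the limit on all or nearly all arrays, gave 0.61 and 0.48. After LH ACTN1 read 10.73, 11.12 and 10.1 in theca, against 6.71, 6.94 and 9.13 in membrane granulosa. ZEB1 read 8.21, 8.45 and 7.03 in theca after LH, against 5.3, 5.85 and 5.85 in membrane granulosa. CDH1 was lower in theca after LH (-1.67 ± 0.32, adjusted p = 0.00228) and, by at least 0.49, before LH (adjusted p = 0.0198). DSC2 was higher in theca before LH (2.90 ± 0.21, adjusted p = 3.06e-06). PKP2 was lower in theca after LH (-2.3 ± 0.30, adjusted p = 0.00027) and before LH (-1.33 ± 0.30, adjusted p = 0.00451). CTNNB1 was also lower in theca after LH (-0.45 ± 0.12, adjusted p = 0.0161) and before LH (-0.60 ± 0.12, adjusted p = 0.0019). Before LH the calls of CDH1 and PKP2 were lost without cow F (-0.84 and -1.02) or cow G (-1.02 and -1.05), and after LH that of CTNNB1 without cow A (-0.45) or cow B (-0.40). Between antral and membrane granulosa 2 junction genes were called at each time (2.94%, against 2.58% before and 3.41% after LH), all lower in antral granulosa: VEZT and PLXNB2 before LH, and CLDN12 and CDH11 after LH. Those of VEZT and CLDN12 were lost without any 1 of the 6 cows (-0.65 to -0.48 and -0.69 to -0.45), that of PLXNB2 without cow A, D or G (-0.79 to -0.65) and that of CDH11 without cow A, B, C or G (-1.22 to -1.04).

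Over the 18 arrays, which share cows and groups, the genes with the pattern most like each of the 6 were listed by Pearson correlation as a description. CAV1, caveolin 1, was the closest to CLDN11 (r = 0.99) and to LMO7 (r = 0.983) and the third closest to RND3 (r = 0.98). CAV1 averaged 11.67 in theca after LH and 10.69 before LH, 12.68 in antral granulosa after LH and 3.97 before LH, and 12.61 in membrane granulosa after LH and 6.23 before LH. HDAC7 (r = 0.976) and LMO7 itself (r = 0.97) were next for CLDN11, RGCC (r = 0.981) and P4HA3 (r = 0.975) for LMO7, and MEIS1 (r = 0.984) and CD40 (r = 0.983) were closest to RND3. GJA1 was most like IL6R (r = 0.982), FNDC3B (r = 0.982) and BCAR3 (r = 0.974). CDH2 was most like MERTK (r = 0.943), FHIP1B (r = 0.91) and UBAP1 (r = 0.902), and CLDN1 most like PDPN (r = 0.905), PLBD1 (r = 0.898) and F2RL2 (r = 0.896). CLDN11, LMO7 and RND3 correlated with each other at 0.96 to 0.97. CDH2 correlated with CLDN1, CLDN11, LMO7 and RND3 at 0.14 to 0.29.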

How the data were processed

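RNA of theca, antral and membrane-associated granulosa from 6 cows was measured on 18 Affymetrix 3' arrays. Extraction used Trizol and phase lock gel, and in vitro transcription with biotin labelled the product, per the labels' protocols. The authors deposited log2 signals per probe set, made with RMA in Partek 6.5 per the submitters' processing notes. The RMA settings and genome build are not given in the sources used here.

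The table holds 24128 entries from 2.29 to 14.9, with array medians of 5.74 to 5.86. The 112 controls were left out. Of 24016 probe sets 13292 carry 1 symbol in the platform's annotation, which can be old, 86 several and 10638 none. Of the first, 13263 have a RefSeq gene ID, and no symbol changed. They stand for 9155 genes, each represented by the probe set whose mean over all arrays is highest. Of 137 listed junction genes 68 are measured. The counts and median of 1 of the 7 lists are not reported here.

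Contrasts were fitted over all 18 arrays with limma 3.58.1 in R 4.3.3 (lmFit, eBayes) with Benjamini-Hochberg correction. LH effects compare different cows, with no block. Layers were compared within a cow, and so were LH effects between layers, by a fixed term for each cow. This pairing comes from the cow named in each title: after removing group means, arrays of 1 cow correlated at -0.02 to 0.69, and 17 of 18 pairs were over 0.1. Arrays sharing only a replicate number across times correlated at -0.17 to 0.23.

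The 6 genes, the gene lists, the tests and the naming rule were chosen with earlier results of these data known. Genes are named by rule: for each list and contrast up to 3 called genes each way of largest size whose groups do not overlap or whose cows agree, 10 junction genes whatever their result, and the 3 genes of most similar pattern for each of the 6. Not every gene that this rule gave is named in the text: CTNNA1, CDH13, F11R and RHOU are among those left out. Others are named for some of their contrasts only. The values of GJC1 and of the 4 dim gap junction genes were added after they were seen. Fits were tested on simulated data. Alternatives were quantile normalization, median centring, leaving out the dimmest probe sets, eBayes with trend and robust, only the arrays compared, other blocks, each cow left out, and the mean of a gene's probe sets. Figures used matplotlib 3.10.9 in Python 3.11.15.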

Additional observations from a re-analysis of the deposited data

Results flagged for a closer look

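For 7 of the 68 junction genes the LH effect differed between theca and membrane granulosa by limma's test of the difference itself, within cows (theca minus membrane granulosa, adjusted over 24016 probe sets). DSC2 differed by -2.76 ± 0.30 (adjusted p = 0.000207): its LH effect was 0.38 ± 0.33 in theca and 3.14 ± 0.33 in membrane granulosa. VCL differed by -1.97 ± 0.32 (adjusted p = 0.00245), but its second probe set gave -0.97 ± 0.36 (adjusted p = 0.131). CGN differed by 1.80 ± 0.30 (adjusted p = 0.00276), with -0.77 in theca and -2.57 in membrane granulosa. CFL1 differed by -0.95 ± 0.22 (adjusted p = 0.018), and PLXNB2 by -0.84 ± 0.19 (adjusted p = 0.0157). RHOB differed by 0.95 ± 0.26 (adjusted p = 0.0381), with 1.28 in theca and 0.33 in membrane granulosa. Another RHOB probe set, above the limit on all arrays, gave 0.52 ± 0.23 (adjusted p = 0.199). GJB5 differed by -0.83 ± 0.23 (adjusted p = 0.0388), with -1.31 in theca and -0.48 in membrane granulosa. The call of GJB5 was lost without any 1 of the 6 cows (-0.99 to -0.71), that of RHOB without any but cow C (0.73 to 1.06), that of PLXNB2 without cow A, B or F (-0.82 to -0.67) and that of CFL1 without cow A, B or G (-0.89 to -0.77). These 7 are 10.3% of the junction genes, against 11.6% of all genes.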

How the results depend on the processing

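With 3 cows per group, the count of called junction genes depended on single cows. Leaving out each cow in turn gave 8 to 19 in membrane granulosa after LH (12 with all cows; 19 without cow C), 2 to 4 in theca after LH, 13 to 24 for theca minus membrane granulosa after LH (13 without cow A or cow B), 0 to 4 for antral minus membrane granulosa before LH, 0 to 2 after LH, and 3 to 9 for LH effects that differ between theca and membrane granulosa (7 with all cows). For antral minus membrane granulosa, where 2 were called at each time, quantile normalization gave 1 before and 1 after LH. Before LH, leaving out the dimmest probe sets gave 5 and the mean of probe sets 1. A fit without the term for each cow, and so without the pairing of layers within cows, gave 0. After LH, median centring gave 1, only the arrays compared 7 and the fit without the term for each cow 1. LH effects that differ between theca and membrane granulosa numbered 3 with only the arrays compared and 4 without the term for each cow. For the LH effects the replicate block, which pairs different cows by number alone, gave 14 in membrane granulosa, 13 in antral granulosa and 3 in theca, against 12, 12 and 2.

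The mean of a gene's probe sets moved CLDN11 to 4.52 in membrane and 5.19 in antral granulosa, LMO7 to 3.10 and 2.80, and GJA1 to -0.77 in membrane granulosa, -0.80 in antral granulosa and -0.20 in theca. The second probe sets of LMO7 and GJA1 were below the limit on nearly all arrays, while that of CLDN11 was above it on all 18 and had smaller differences in granulosa. The mean turned MAGI3 in membrane granulosa to -0.01 (adjusted p = 0.985) and lost its call in antral granulosa (0.22, adjusted p = 0.677). Of the counts and LH differences of the 6 genes, 337 values under the alternatives stayed close and 35 moved. For single named genes and other differences 1863 stayed, 141 lost and 9 gained their call, 24 moved and 1 changed sign.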
